A study of Mus musculus with 4 samples.

Results

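The variable genes of the T cell receptor are the V, D and J segments that each T cell joins into 1 alpha and 1 beta chain, or into 1 gamma and 1 delta chain. The members were every gene whose GENCODE mouse symbol starts with Trav, Traj, Trbv, Trbj, Trbd, Trgv, Trgj, Trdv or Trdj, with the constant genes left out. The rule found 252 of the 50600 genes listed in the deposited count tables. The 4 libraries form 1 group: primary T-helper 2 (Th2) cells, CD4+ T cells differentiated in culture, from Mus musculus strain C57BL/6NJ. The labels give sex as not collected and age as unknown, and they name no genotype change, treatment or comparison group. The headers of the tables carry a time of 16 hours in a folder name, which the labels do not explain. Each library has a biological replicate number from 1 to 4, while all of them carry the same donor identifier, and whether they came from separate animals is not given, so tests over libraries measure only the spread between these libraries.

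In a developing T cell the RAG recombinase cuts beside V, D and J segments and the joined V(D)J exon is then spliced to a constant gene. Each cell keeps its own combination, so a population of CD4+ T cells carries many V and J segments, each in some of its cells. The alpha locus on chromosome 14 has the delta locus inside it, and in C57BL/6 mice a large block of alpha V segments is repeated, with copies marked d and n in their symbols. Alpha beta T cells, the lineage of Th2 cells, carry alpha and beta chains at the surface, while gamma and delta chains belong to another lineage.

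The sequences of the segments that the counts turn on come first, because copies of alpha V segments are nearly the same in sequence and J segments are very short. The 3 copies of Trav13-3 are given by a stretch that runs to their 3′ end. It starts at base 58 of Trav13-3 and Trav13n-3 and at base 112 of Trav13d-3. Capitals mark the run of C that is 1 base shorter in the pseudogene Trav13-3, and the 1 position at which Trav13n-3 carries another base.
Trav13-3: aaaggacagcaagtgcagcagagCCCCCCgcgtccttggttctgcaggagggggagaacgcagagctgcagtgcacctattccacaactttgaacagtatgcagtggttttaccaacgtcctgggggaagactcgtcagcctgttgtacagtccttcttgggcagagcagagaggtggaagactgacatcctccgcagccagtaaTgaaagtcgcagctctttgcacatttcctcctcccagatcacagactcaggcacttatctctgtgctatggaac
Trav13d-3: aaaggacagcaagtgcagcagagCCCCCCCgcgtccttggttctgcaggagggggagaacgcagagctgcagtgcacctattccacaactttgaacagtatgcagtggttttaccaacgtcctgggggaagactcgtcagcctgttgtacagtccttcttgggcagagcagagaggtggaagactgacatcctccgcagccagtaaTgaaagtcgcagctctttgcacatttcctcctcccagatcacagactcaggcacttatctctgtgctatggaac
Trav13n-3: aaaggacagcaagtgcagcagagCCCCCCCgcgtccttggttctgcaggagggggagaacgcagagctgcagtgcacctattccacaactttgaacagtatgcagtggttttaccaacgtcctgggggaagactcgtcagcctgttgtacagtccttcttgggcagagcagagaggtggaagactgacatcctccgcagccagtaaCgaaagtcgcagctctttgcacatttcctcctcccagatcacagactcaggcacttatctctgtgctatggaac
Over the aligned length Trav13d-3 and Trav13n-3 differed at 1 position (99.7% identity), Trav13-3 and Trav13d-3 at 1 (99.7%), and Trav13-3 and Trav13n-3 at 2 (99.4%). These 3 segments reappear below, where Trav13d-3 and Trav13n-3 have similar counts and Trav13-3 has fewer.

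The beta V segments that follow held the most counts, with Trbv31 added as the only beta V segment on the minus strand. Each is shown by its last 60 bases, 5′ to 3′ in the direction of the gene, and capitals mark every CTGTG. In Trbv3 and Trbv19 it occurs at more than 1 place, and the last one in each segment lies at the codon of the conserved cysteine before the V-J join.
Trbv13-2: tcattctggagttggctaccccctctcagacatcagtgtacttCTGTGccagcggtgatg
Trbv2: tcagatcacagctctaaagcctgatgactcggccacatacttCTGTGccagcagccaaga
Trbv3: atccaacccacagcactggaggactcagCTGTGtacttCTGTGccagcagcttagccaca
Trbv13-1: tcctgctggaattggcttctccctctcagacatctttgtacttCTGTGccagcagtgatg
Trbv19: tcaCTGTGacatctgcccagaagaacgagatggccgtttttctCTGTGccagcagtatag
Trbv31: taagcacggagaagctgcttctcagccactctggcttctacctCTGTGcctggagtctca
CTGTG was found in the last 60 bases of 143 of the 170 V segments (84.1%), and its reverse complement in 27.6% of them. No beta V segment was more than 90.6% identical to another over the whole length of the shorter of the 2.

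The J segments with the most counts are shown whole, with TTTGG or TTCGG in capitals, the letters at the start of the motif that J segments add to the chain.
Traj9: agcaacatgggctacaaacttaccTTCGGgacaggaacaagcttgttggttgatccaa
Traj11: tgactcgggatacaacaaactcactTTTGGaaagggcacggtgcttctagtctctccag
Traj58: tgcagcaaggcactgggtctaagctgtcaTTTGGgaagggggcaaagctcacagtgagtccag
Trbj2-1: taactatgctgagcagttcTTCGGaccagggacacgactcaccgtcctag
Trbj2-5: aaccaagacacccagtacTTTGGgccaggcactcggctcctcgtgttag
On the segment's own strand 62 of 80 J segments (77.5%) held one of these motifs, and on either strand 63 did. The motif stood in 58 of 70 functional J segments and in 4 of 10 J pseudogenes, and in 26 of the 30 J segments with a count against 36 of the 50 at 0. All sequences are GENCODE M21 transcript sequences on build GRCm38.

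The values are counts: fragments with both ends aligned, assigned to exons of 1 gene on 1 strand. A library held 1688658, 1705096, 2222583 and 1881293 counts in replicates 1 to 4, so 3 counts, the limit that a count of 0 allows, correspond to 1.35 to 1.78 counts per 1000000 counts of the library (CPM). Genes with an exon opposite an exon of another gene on the other strand held 91.9% of all counts although they are 16.2% of the genes. All levels and zeros given here are those on the counted strand. The headers record strand option 1, and whether that strand is the one of the transcripts or the opposite one was not tested. If it is the opposite one, no count, zero or ratio below would measure the RNA of the gene it is listed under. On the counted strand Actb had 227, 220, 135 and 255 counts in replicates 1 to 4, and B2m had 56, 80, 27 and 68. CT010467.1, a ribosomal RNA entry, took 9.4% of replicate 3 and 1.29% to 5.05% of the others. Tsix, the antisense partner of Xist, had 3465 and 2990 counts in replicates 1 and 2 and 3 and 4 counts in replicates 3 and 4, a split between libraries that the shared donor identifier does not describe. Xist itself had 71, 89, 2 and 8 counts. Among markers of alpha beta T cells all 8 had counts in all 4 libraries, with Trac at 103 counts and Cd4 at 289. Of the 6 gamma delta markers Trdc, Sox13 and Il17re had counts (31 in all), and 1 of 6 CD8 and cytotoxic markers did (Cd8b1, 29). For natural killer cells 1 of 4 markers had counts (Eomes, 17), and for invariant natural killer T cells 0 of 2. Among B cell markers Cd79a (60) and Ighm (59) had counts while Ms4a1 and Cd79b were at 0, and of 5 macrophage and dendritic markers Csf1r (3829, 871 bases opposite Hmgxb3), Cd74 (48) and Cd68 (30) had counts while Adgre1 and Itgax were at 0.

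Receptor segments were scarce on the counted strand. Together they held 79, 120, 101 and 110 counts in replicates 1 to 4, which is 46.8, 70.4, 45.4 and 58.5 CPM. Replicate 2 was highest and replicate 3 lowest in CPM, while with CT010467.1 left out of the library total replicate 1 was lowest. In these bulk libraries fewer cells that use a segment and less RNA per cell cannot be told apart. The counted strand and fragments left unassigned bear on these counts too, and their part was not tested. Of the 252 segments 88 (34.9%) had a count in any library, close to the 34.4% of all 50600 genes, and 9 had a count in all 4. The median segment had 0 counts, as did the median gene. Per kilobase of exon the segments held 6.06 counts over the 4 libraries, against 62.9 for all genes.

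Most of the 410 segment counts lay in alpha V and beta V. The 128 alpha V segments (20 of them pseudogenes; chromosome 14, 52427928 to 53977678) held 52, 73, 57 and 58 counts, or 32.5 ± 7.28 CPM (SD, n = 4). That is 58.5% of the segment counts (95% Wilson interval 53.7 to 63.2, counting error only). The 35 beta V segments (13 pseudogenes; chromosome 6, 40891229 to 41558452) held 19, 31, 21 and 33 counts, 14.1 ± 4.41 CPM, 25.4% of the segment counts. The 60 alpha J segments (54155005 to 54218842) held 4, 5, 18 and 8 counts, 4.41 ± 2.58 CPM, with replicate 3 above the other 3. The 14 beta J segments held 3, 7, 3 and 6 counts, 2.61 ± 1.27 CPM, with no library apart from the others. The remaining classes held few counts or none: the pair of beta D segments had 1 count each (Trbd1 in replicate 4, Trbd2 in replicate 3), the 6 delta V segments had 10, and the 2 delta J, 1 gamma V and 4 gamma J segments had 0 in every library.

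**Figure D1:**
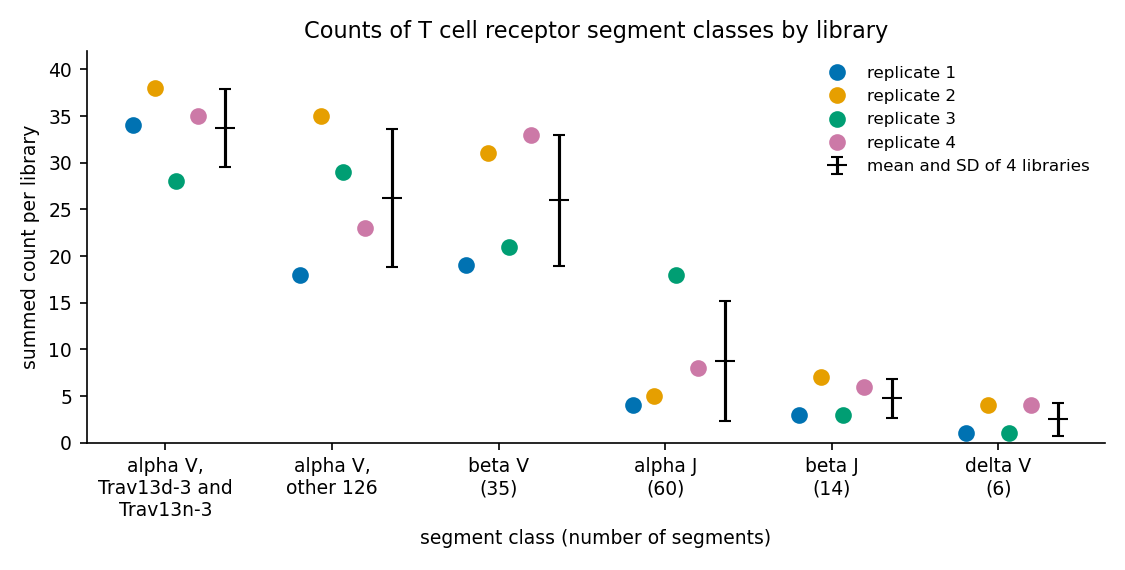
Summed counts of each class of receptor segments (y axis, counts per library) in the 4 Th2 libraries, with alpha V split into Trav13d-3 with Trav13n-3 and the other 126 segments; points are libraries and bars are the mean and SD. The 2 alpha V segments alone sit between 28 and 38 counts, above the 35 beta V segments in 4 of 4 libraries.

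Spread between replicates was tested with edgeR's quasi-likelihood fit over all genes, asking which features varied more than the fitted trend. After the filter on low counts 4918 features were tested and 22 were called at an adjusted p under 0.05, which is 0.447%. With segments summed by class, alpha V and beta V passed the filter and 0 of the 2 were called (adjusted p = 0.991 for both in edgeR). With segments kept apart, Trav13d-3 and Trav13n-3 were the only members tested, and 0 of the 2 were called (adjusted p = 0.991 for both in edgeR). Whether summed by class or kept apart, 0 members were at an unadjusted p under 0.05, and limma also called 0. All other segments had too few counts for this test. Without the filter alpha J, the class with the lowest p, had an unadjusted p of 0.187 and an adjusted p of 0.90 in edgeR.

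Among alpha V segments a pair of copies held most of the counts. Trav13n-3 (chromosome 14, 53337122 to 53337639, plus strand) had 18, 18, 13 and 20 counts, 17.2 ± 2.99 (SD, n = 4). Trav13d-3 (53032848 to 53033419, plus strand) had 16, 20, 15 and 15 counts, 16.5 ± 2.38. The ranges of the 2 segments overlapped, and both were lowest or tied for lowest in replicate 3. Together they held 135 of the 240 alpha V counts, 56.2% (Wilson 49.9 to 62.4), with 65.4%, 52.1%, 49.1% and 60.3% in replicates 1 to 4.

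Both of these segments lie opposite an annotated antisense gene, and no other alpha V segment does. All 391 exon bases of Trav13d-3 lie in exons of Gm30214 (53032417 to 53039466, minus strand), which had 0 counts. All 337 exon bases of Trav13n-3 lie in exons of Gm43650 (53336637 to 53343922, minus strand), which had 11, 5, 8 and 5 counts. Trav13-3 (53729558 to 53730074), which differs from them over the stretch shown above by the capitals and which has no exon opposite, had 4, 5, 0 and 5 counts, fewer than either in each library. Per kilobase the pair with an exon opposite held 185 counts and the other 126 alpha V segments 2.24. Whether the counts of the pair come from the V segments or from RNA of the antisense genes was not tested. Over all members 5 of 252 segments had an exon opposite, and they held 35.4% of the segment counts.

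Outside that pair, alpha V counts were 18, 35, 29 and 23, or 14.1 ± 4.39 CPM (SD, n = 4), in 32 of 126 segments. Trav7-6 (53716716 to 53717291) led them with 2, 4, 8 and 3 counts, highest in replicate 3. Next came Trav13-3 with 14 counts and Trav9-2 (53590857 to 53591514) with 1, 2, 4 and 6. Of the alpha V segments with a count, 20 had it in 1 library only and 13 had a single count, for which a count in 1 library and none in another is within counting error. By family, the number after Trav, 15 of 23 families had a count. Trav13 held 154 counts (19 without the pair with an exon opposite), Trav9 had 24 and Trav7 had 21, and no other family had more than 7. Trav11, the family in the invariant alpha chain of natural killer T cells, was at 0 in its 3 segments. Of these Trav11 and Trav11d are identical over the length of the shorter one. Trav1, which mucosal-associated invariant T cells use, was at 0 too. Traj18, the J segment joined to Trav11 in natural killer T cells, had 1 count, in replicate 3. The 10 alpha V segments whose symbols also carry a delta V name, because both chains can use them, held 3, 3, 7 and 1 counts in 5 segments.

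**Figure D2:**
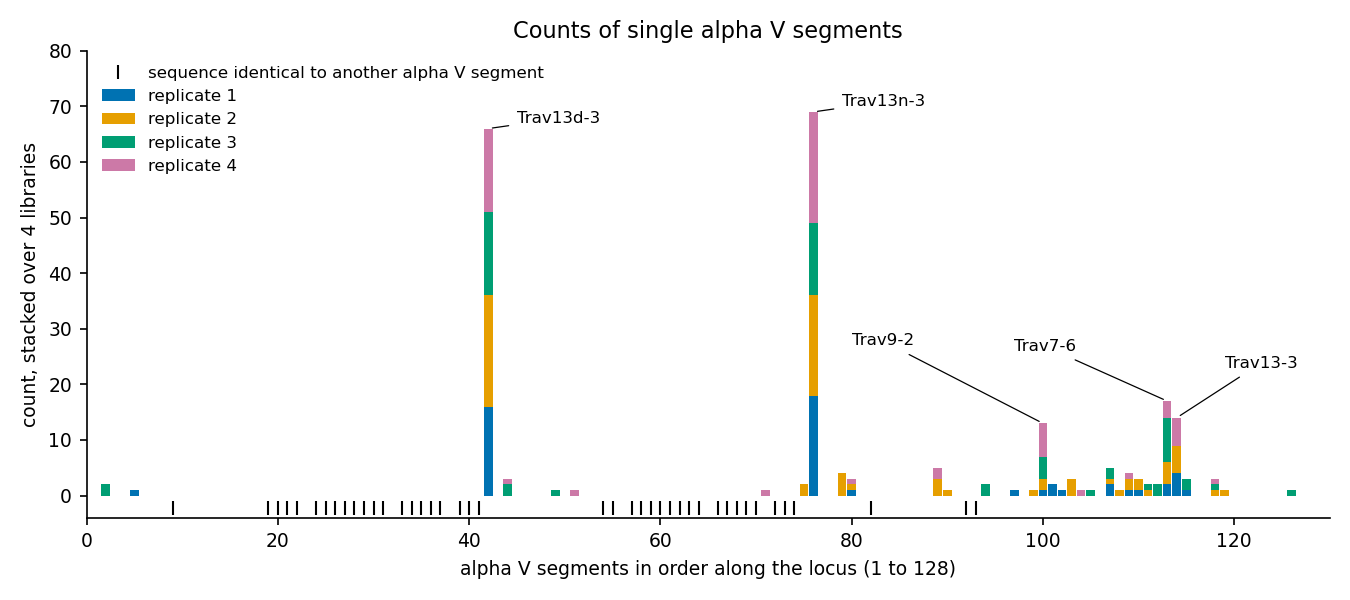
Counts of the 128 alpha V segments in order along the locus (x axis) stacked over the 4 libraries (y axis, counts). Ticks under the axis mark the 42 segments identical to another alpha V segment over the length of the shorter one. Trav13d-3 (66 counts) and Trav13n-3 (69 counts) stand above all others, none of the ticked segments has a count, and the next highest, Trav7-6, has 17.

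Alpha V segments with an identical copy had no counts. Each alpha V sequence was compared with all others over the whole length of the shorter of the 2. By this measure 42 of the 128 were identical to at least 1 other. Some identical pairs differ in length, such as Trav15d-1-dv6d-1 (418 bases) and Trav15n-1 (352). Those 42 had 0 counts in every library, a limit of 0.189 counts per kilobase from 3 counts over the 4 libraries. Of the 86 that were not identical to another, 34 had counts. The 84 of the 86 with no exon opposite held 105 counts, 3.38 per kilobase, at least 17.9-fold higher. That fold mixes repeated blocks, since 21 of the 42 are marked d and 18 are marked n. Among the 84, segments marked d held 0.477 counts per kilobase, those marked n 2.21 and those with plain symbols 4.65. The headers record no option to count fragments that align to several places, and such fragments are left out by default in that program. Identity short of 100% showed no such gap: 9 of 23 segments at 98% to under 100% had counts (38 counts without the pair with an exon opposite), 19 of 43 at 95% to under 98% (57 counts), and 6 of 20 under 95% (10 counts).

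**Figure D3:**
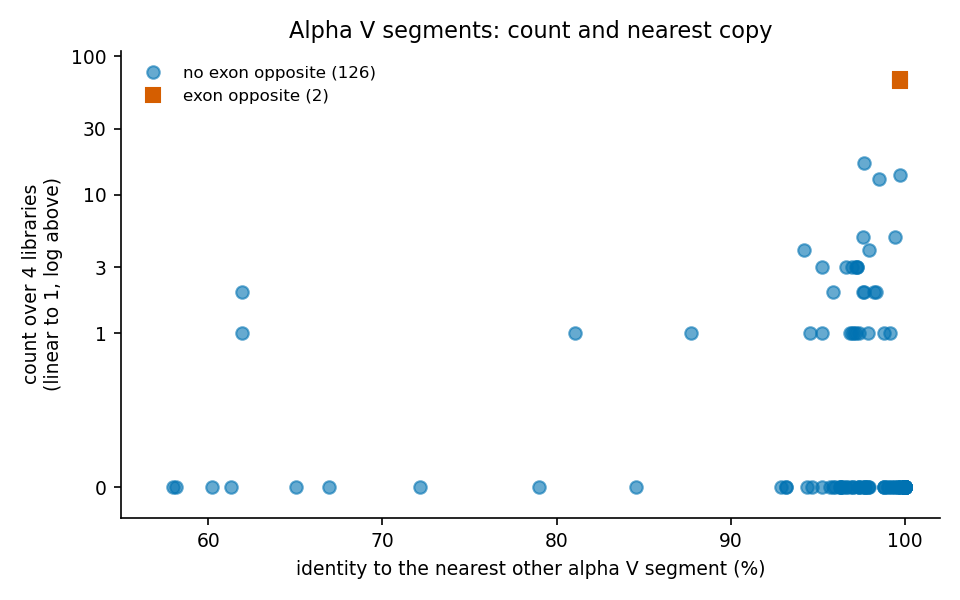
Count over the 4 libraries (y axis, linear to 1 and logarithmic above) of each alpha V segment against its identity to the nearest other alpha V segment (x axis, percent); squares are the 2 segments with an exon opposite. All 42 segments at 100% lie at 0, while counts above 0 lie between 61.9% and 99.7%.

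By repeated block, of 55 alpha V segments with plain symbols 25 had counts, 90 in all, and 3 of the 55 had an identical copy. Of 39 segments marked d 2 had counts, 69 in all and 3 without Trav13d-3, and 21 of the 39 had an identical copy. Of 34 marked n 7 had counts, 81 in all and 12 without Trav13n-3, and 18 had an identical copy. Split by position, the 64 segments of the 5′ side (Trav1 to Trav9n-3) held 8 counts and the 64 of the 3′ side (Trav5n-3 to Trav23) held 97, both without the pair with an exon opposite. The gap between the sides was there among segments with no identical copy and no exon opposite too: 5 of 32 on the 5′ side had counts (1, 0, 5 and 2 in replicates 1 to 4) and 27 of 52 on the 3′ side (17, 35, 24 and 21). Among the same segments 1 of 17 marked d, 6 of 15 marked n and 25 of 52 with plain symbols had counts.

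Beta V counts were not concentrated in a pair of segments, and no beta V segment has an exon opposite. Counts were found in 19 of 35 segments, 54.3%, and 5 segments (Trbv2, Trbv3, Trbv13-1, Trbv13-2 and Trbv15) had counts in all 4 libraries. Trbv13-2 (chromosome 6, 41121396 to 41121832) led with 4, 5, 4 and 4 counts, nearly the same in each library, and held 16.3% of the beta V counts (Wilson 10.5 to 24.6). Trbv2 (41047340 to 41047995) had 3, 1, 6 and 5 counts. Trbv3 (41048290 to 41048828) had 2, 4, 1 and 4. These 3 segments overlapped in their ranges, so their order is not fixed by these libraries.

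Trbv13-1 (41116007 to 41116468) had 1, 2, 1 and 6 counts, with most of them in replicate 4. Trbv19 (41178375 to 41179048) had 0, 6, 2 and 2, with most in replicate 2. Trbv31 (41557691 to 41558452), which lies beyond the constant genes and joins by inversion, had 2, 2, 1 and 0. As a family the 3 Trbv13 segments held 33 counts, 5, 7, 7 and 14 in replicates 1 to 4. The nearest other beta V segment had a median identity of 64.7% and at most 90.6%, against a median of 98.3% for alpha V, so no beta V segment has an identical copy. Trbv4, Trbv5 and Trbv8 were at 0 and Trbv10 had 1 count. Each of these 4 shares exon bases with a noncoding gene on the same strand, and a fragment that touches exons of more than 1 gene is left unassigned by default.

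**Figure D4:**
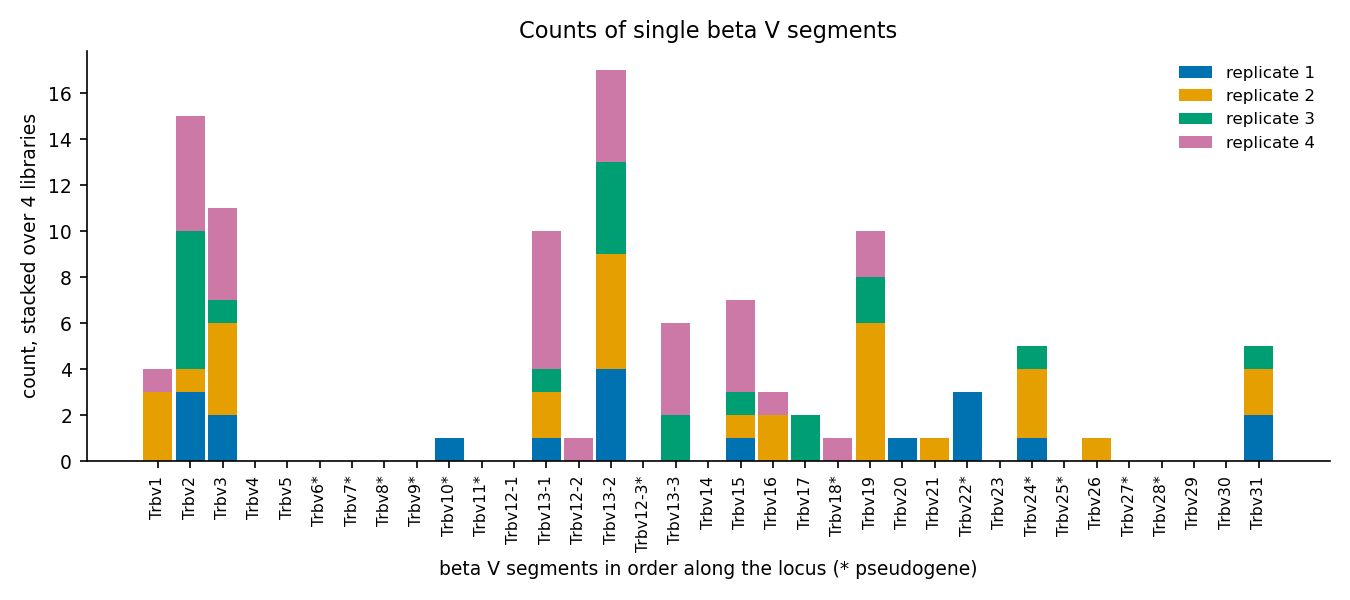
Counts of the 35 beta V segments in order along the locus (x axis, asterisks mark pseudogenes) stacked over the 4 libraries (y axis, counts). Trbv13-2 has 17 counts and Trbv2 has 15, and 16 segments are at 0.

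How many segments shared the counts was summarised by an effective number, the inverse of the summed squared shares, which equals the number of segments when all are used equally. For beta V it was 7.73 ± 0.977 per library (SD, n = 4) and 10.7 with libraries pooled. For alpha V it was 5.52 ± 1.10 and 5.79, and without the pair with an exon opposite 8.91 per library and 13.3 pooled. For alpha J it was 5.62 ± 2.30 per library but 13.8 pooled, and for beta J 2.81 ± 1.94 and 5.08. A library with few counts cannot show a high number, so the values per library are limited by depth.

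Alpha J counts were thin and spread along the cluster. Of 60 segments 21 had counts, 0 had counts in all 4 libraries, and 18 had them in 1 library only. Traj9 (chromosome 14, 54209393 to 54209450) and Traj11 (54207139 to 54207197) each had 0, 1, 3 and 1 counts. Traj58 (54157280 to 54157342) had 3 counts, all in replicate 3, Traj13 had 2, both in replicate 2, and Traj31 had 1 each in replicates 3 and 4. Replicate 3 thus held the most counts of the 3 leading segments.

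Alpha J took 17.8% of the segment counts in replicate 3 (Wilson 11.6 to 26.4) and 5.06%, 4.17% and 7.27% in replicates 1, 2 and 4. The same library held the largest share of CT010467.1 and the fewest Trac counts, and their part in the result was not tested. Without replicate 3 alpha J stood at 3.18 CPM in place of 4.41, and 13 segments had counts in place of 21. The 30 segments of the 5′ side (Traj61 to Traj32) had 2, 0, 8 and 5 counts and the 30 of the 3′ side (Traj31 to Traj1) had 2, 5, 10 and 3, with no order that held in every library.

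**Figure D5:**
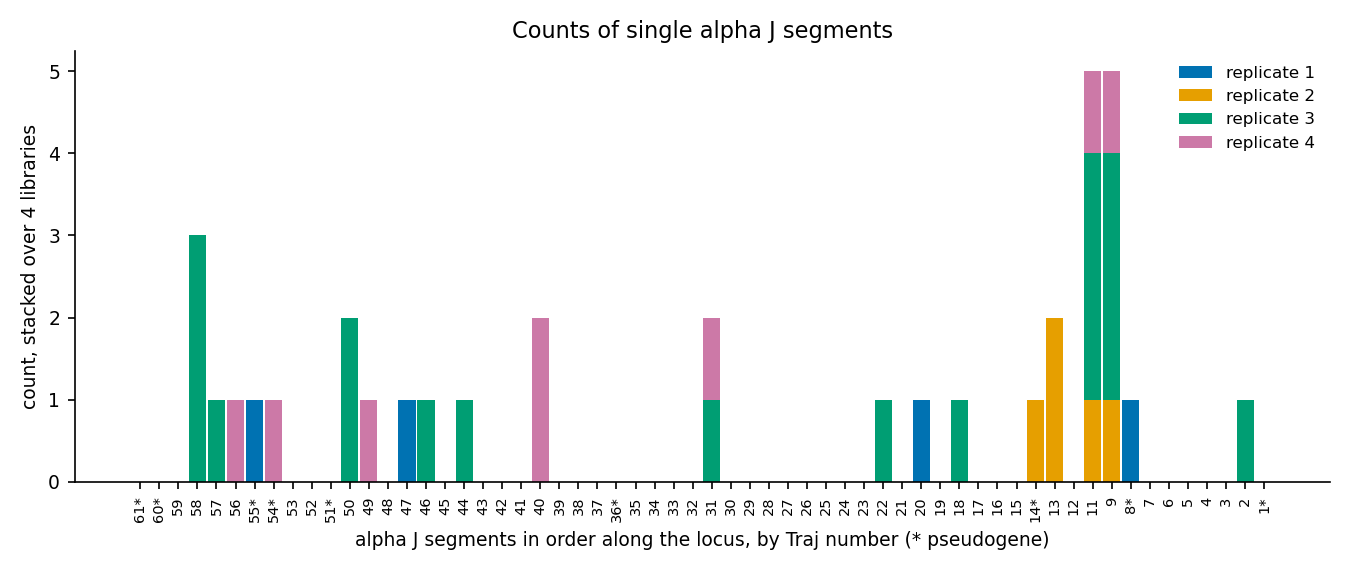
Counts of the 60 alpha J segments in order along the cluster (x axis, Traj numbers, asterisks mark pseudogenes) stacked over the 4 libraries (y axis, counts). Traj11 and Traj9 have 5 counts each, Traj58 has 3, all from replicate 3, and 39 segments are at 0.

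Beta J counts lay mostly in the second cluster. The 7 segments of the first cluster (Trbj1) had 2, 2, 0 and 0 counts and the 7 of the second (Trbj2) had 1, 5, 3 and 6. Trbj2-1 (chromosome 6, 41542754 to 41542803) had 0, 0, 1 and 6 counts, 36.8% of all beta J counts, nearly all in replicate 4. Trbj2-5 (41543453 to 41543501) had 1, 2, 0 and 0. Trbj1-6 had 2 counts, both in replicate 1, Trbj2-7 had 1 each in replicates 2 and 3, and Trbj1-2 had 1. J segments are 29 to 72 bases long, far shorter than a V segment, and of all 2433 genes of at most 100 bases 9.78% had a count.

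The delta V counts came wholly from segments with an exon opposite. Trdv5 (chromosome 14, 54148662 to 54149294, minus strand) had 1, 3, 0 and 2 counts and lies 207 bases opposite Trdc, the delta constant gene, which had 6, 6, 4 and 9. Trdv2-2 (53960944 to 53961602) had 0, 1, 1 and 1 counts and lies 105 bases opposite Gm43647. Trdv2-1 (53946073 to 53946660) had 1 count, in replicate 4, and lies 192 bases opposite the same gene, which had 5, 5, 4 and 5. Trdv1, Trdv3 and Trdv4, with no exon opposite, were at 0. Trdc has exons opposite Trdv5 and opposite Gm43434.

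Gamma segments were not detected. Trgv2 (chromosome 13, 19336573 to 19337167), Trgj1, Trgj2, Trgj3 and Trgj4 had 0 counts, as did Tcrg-C1, Tcrg-C2, Tcrg-C3 and Tcrg-C4, the annotation's names for the gamma constant genes. With 1 gamma V segment the limit is 6.11 counts per kilobase, above the 5.03 of alpha V, so no ratio could be given. The annotation names 6 further gamma V genes Tcrg-V, outside the rule, and these were also at 0. With all 7 the limit is 1.08 per kilobase, so alpha V was at least 4.66-fold higher, and at least 2.07-fold higher without the pair with an exon opposite, both against a floor of 3 counts over all 7.

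Ratios between 3 pairs of classes were compared within each library by an exact two-sided sign-flip permutation test, which with 4 libraries and 16 sign patterns cannot go below p = 0.13. Counts per kilobase were lower in alpha V than in beta V in 4 of 4 libraries, by log2 ratios of −0.50, −0.70, −0.51 and −1.12 (mean −0.71 ± 0.29, SD, n = 4, exact p = 0.13, adjusted p = 0.188 over 3 comparisons). Without the pair with an exon opposite the mean was −1.89, and without the 42 identical alpha V copies −0.12 (exact p = 0.625), so the size rests on which alpha V segments enter. Alpha V against alpha J gave −0.20, 0.00, −2.10 and −0.96 (mean −0.81 ± 0.95, exact p = 0.25, adjusted p = 0.25), which the spread does not separate from 0. Per segment in place of per kilobase it turned to 1.83. A fragment that only touches a J segment is counted in full, so length scaling raises short segments. A fragment that touches a J segment and also a V or constant gene is left unassigned by default. The ratio therefore does not compare how often alpha V and alpha J segments are used.

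Functional V segments held more counts per kilobase than V pseudogenes in 4 of 4 libraries. The log2 ratios were 0.02, 0.83, 1.67 and 1.39 (mean 0.98 ± 0.73, SD, n = 4, exact permutation p = 0.13, adjusted p = 0.188), and the mean fell to 0.15 (exact p = 0.875) without segments with an exon opposite. The classes were unlike in this. In beta V 15 of 22 functional segments had counts, 10.9 per kilobase, and 4 of 13 pseudogenes, 2.55 per kilobase. In alpha V without the pair, functional segments held 2.04 counts per kilobase and pseudogenes 3.61, of which Trav13-3 gave 14 of 21 counts. Whether the classes differ in this ratio was not tested.

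The constant genes, to which the joined exon is spliced, were compared per kilobase with the summed V segments of their locus. Trac had 30, 29, 14 and 30 counts, Trbc1 had 11, 8, 8 and 16, and Trbc2 had 15, 18, 7 and 13. Trac was lowest in replicate 3 and close to equal in the others. Taking each V class as 1 exon of its mean length, alpha V exceeded Trac by 4.35, 6.32, 10.2 and 4.85 times, and without the pair with an exon opposite by 1.51, 3.03, 5.20 and 1.92 times. Beta V exceeded Trbc1 and Trbc2, summed and taken over their mean length, by 1.47, 2.40, 2.81 and 2.29 times (2.24 ± 0.563, SD, n = 4). Both ratios were highest in replicate 3, where Trac and Trbc2 were lowest. Fragments that span a join or a splice between genes touch more than 1 gene and are unassigned by default, so neither side counts all of its RNA. Fragments that align to several places are left out by default too. How alike Trbc1 and Trbc2 are in sequence was not measured here, so the effect on their counts is not known.

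Immunoglobulin segments, which belong to the antigen receptor of B cells, gave a reference of the same kind and length. Of 382 such segments 5 had counts, 1, 1, 3 and 1 in replicates 1 to 4. Per kilobase the receptor segments of T cells held 6.06 counts and the immunoglobulin segments 0.0487, a ratio of 124 (exact interval 56.7 to 341, counting error only). Receptor segments with an exon opposite held 35.4% of the receptor segment counts, and the ratio was not computed without them. The 5 immunoglobulin segments with counts were Ighd6-2 with 2 counts and Ighd2-4, Ighj1, Ighv1-58 and Ighv8-6 with 1 each. No kappa or lambda segment had a count.

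Genes that make or use the receptor were read from lists of their pathways. Of 10 V(D)J recombination genes 8 had counts, 2 were tested and 0 were called as varying between replicates. Rag1 and Rag2, which encode the recombinase, were at 0, and Dntt, which adds bases at the joins, had 2, 2, 0 and 1. The highest per kilobase were Xrcc6, a subunit of the Ku end-binding protein, at 3018 counts, and Dclre1c, the Artemis nuclease, at 1243. Xrcc6 lies 344 bases opposite Desi1 and Dclre1c 357 bases opposite Suv39h2. Of 12 receptor complex and proximal signalling genes 12 had counts, 11 were tested and 0 were called. Cd247, the zeta chain, led with 4527 counts and lies 3007 bases opposite Pou2f1, and Cd4, with no exon opposite, had 69, 69, 51 and 100. In CPM, 10 of these 12 genes were lowest in replicate 3, as were 48.0% of the 6443 genes with a mean count of at least 10. With CT010467.1 left out of the library total these became 9 of 12 and 38.3%. Of the 8 V(D)J recombination genes with counts 4 were lowest in CPM in replicate 2 and 3 in replicate 3.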

How the data were processed

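Th2 cells were profiled by RNA-seq in 4 libraries; the labels call the assay total RNA, while a linked protocol's file name speaks of poly(A) RNA. The authors deposited raw counts per gene, made with featureCounts 1.4.6-p4 (paired, both ends aligned, strand option 1, exons by gene) on GENCODE M13, mm10, per the file headers; which aligner was used was not given in the sources used here. Symbols came from GENCODE M21 (GRCm38) for 99.6% of the genes. Exon overlaps of segments and listed genes were found by comparing exon coordinates, and those over all genes with bedtools 2.31.1. Identities were found with edlib 1.3.9.post1. Variation was tested with edgeR 4.0.16 (TMM, filterByExpr, robust quasi-likelihood, intercept only, upper tail, Benjamini-Hochberg), and checked on simulated data; limma 3.58.1 and DESeq2 1.42.0 size factors were alternatives. Ratios used counts per kilobase with 0.5 counts added. Intervals cover counting error only. Named segments were the 5 with most counts per class, every one with a count and an exon opposite, the constant genes, and the 2 highest per kilobase in each other list. Trbv31, Traj18, Trav1, Trav11, Xist, Tsix, Actb, B2m and CT010467.1 were chosen after values were seen. A listed marker is not reported here. Members and lists were chosen with earlier results of these data known.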

Additional observations from a re-analysis of the deposited data

Results flagged for a closer look

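Of 26 segments, classes and genes with at least 10 counts, 2 had 1 library standing apart from the other 3. The rule's nominal chance rate of about 1 in 20 does not hold for small tied counts, or for segments and classes that share counts. Trac had 14 counts in replicate 3 against 29 to 30 in the others. Trbv13-2 had 5 counts in replicate 2 and 4 in each of the others, a difference of 1 count. In the edgeR test of spread between replicates Trac was not called (adjusted p = 0.965). What sets replicate 3 apart for Trac was not tested.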

How the results depend on the processing

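Of the main results under their alternatives, 160 kept their direction or, for levels and numbers of segments, stayed within the replicate SD or 1.5 times, 6 moved and 1 reversed: alpha V against alpha J, which was 1.83 (log2) per segment. Part of the 160 could not change, because a class that holds none of the segments left out keeps its value. Alpha J, for example, stayed at 4.41 CPM without segments with an exon opposite. The 160 are therefore not a measure of robustness. Without segments with an exon opposite, alpha V was 14.1 CPM with an effective number of 8.91 and delta V was 0 CPM; without pseudogenes the effective number of beta V was 6.69. Leaving out 1 library, alpha J segments detected ranged from 13 (without replicate 3) to 19 and beta J from 5 (without replicate 2) to 9. Genes called as varying were 2 with library totals only, 55 or 56 with no filter, 44 at a mean count of 10, 9 without the robust option and 11 to 21 without 1 library, with 0 members in each. The ratio sizes moved within their direction: without segments with an exon opposite, alpha V against beta V was −1.89 and functional against pseudogene 0.15. The ratio of alpha V to gamma V and its alternatives were not run, since gamma V was at 0; with the Tcrg-V genes added, alpha V was at least 4.66-fold higher. No paired analysis was possible because the libraries form 1 group. Low counts limit all single segments.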

Other observations

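Entries of the same loci outside the symbol rule held no counts: the 6 Tcrg-V genes and the delta D segments Trdd1 and Trdd2 were at 0 in every library. Among J segments, 17 of 51 functional alpha J segments had counts (9.93 per kilobase) and 4 of 9 pseudogenes (8.91 per kilobase). The 1 beta J pseudogene, Trbj2-6, had 1 count, in replicate 3.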
